A study of Mus musculus with 12 samples.

Results

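The genes described here encode the precursors of 34 neuropeptides, and they were examined for c-Fos binding near them in excitatory neurons of mouse CA1 after kainic acid. They were taken by symbol from the RefSeq gene table of GRCm38.p6 (mm10), in which all 34 were found among 21523 protein-coding genes on 20 chromosomes. CUT&RUN, which uses an antibody to direct a nuclease to bound DNA, was run on nuclei of CA1, one of the pyramidal cell regions in the hippocampus. All mice were C57BL/6 with the genotype CaMK2a-Cre/+; LSL-Sun1-GFP/+ and were 3 to 4 weeks old. Cre switched on the nuclear envelope tag Sun1-GFP in CaMK2a-expressing, mainly excitatory, neurons, and GFP-positive nuclei were sorted, 50000 for each reaction. The 4 groups were kainic acid with c-Fos antibody, kainic acid with rabbit IgG, PBS with c-Fos antibody and PBS with rabbit IgG, each with 3 replicates, 2 to 3 h after treatment. Kainic acid is a glutamate receptor agonist that provokes seizures, and PBS was its vehicle control.

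The values were the positions of 3294 peaks on these chromosomes, which their label describes as replicated in the comparison of c-Fos with IgG under kainic acid. Neither scores nor values per replicate came with these positions. Sequencing depth is therefore unknown, and variation between replicates cannot be stated. The list held no expression values, so neither the sorted cell type nor the site of expression of any peptide could be checked in RNA. Binding after PBS was not analysed here.

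Neuropeptides are cut from larger precursor proteins by prohormone convertases, stored in dense-core vesicles and released mainly during sustained firing. They act on G protein-coupled receptors. In the hippocampus most are made by interneurons, while granule cells of the dentate gyrus make dynorphin and enkephalin. c-Fos pairs with Jun proteins to form AP-1, a factor that binds TGA(C/G)TCA sequences, often at enhancers far from the genes they serve. Several neuropeptide genes, among them Penk and Npy, are known to be transcribed more after seizures.

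A gene was counted as having a peak when the midpoint of a peak lay inside it or within 100 kb of either end. Of the 34 neuropeptide genes, 9 had a peak (26.5%, exact Clopper-Pearson 95% interval 12.9 to 44.4), and 25 had none. Among all protein-coding genes the share was 21.8% (4694 of 21523). Neuropeptide genes are short, with a median of 6.81 kb against 17.4 kb, and had a median of 2.5 other coding genes within 100 kb against 4. Among genes of the same quintiles of length and of local gene number the share was 17.4%, or 5.92 genes of 34. The interval covers both shares, and it accounts for counting error over genes only.

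None of the 34 genes held a peak midpoint inside it, and none had one within 10 kb. Of all protein-coding genes, 5.52% held one inside and 7.55% had one inside or within 10 kb. Among genes of matching length and gene number these shares were 1.53% and 3.77%, which corresponds to 0.519 and 1.28 genes of 34. With 3 genes taken as the limit that a count of 0 leaves, 0 of 34 allows a share of up to 8.82%, so it does not separate these genes from the others. The nearest peak of any of the 34 genes lay 19.5 kb from Gcg.

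**Figure D1:**
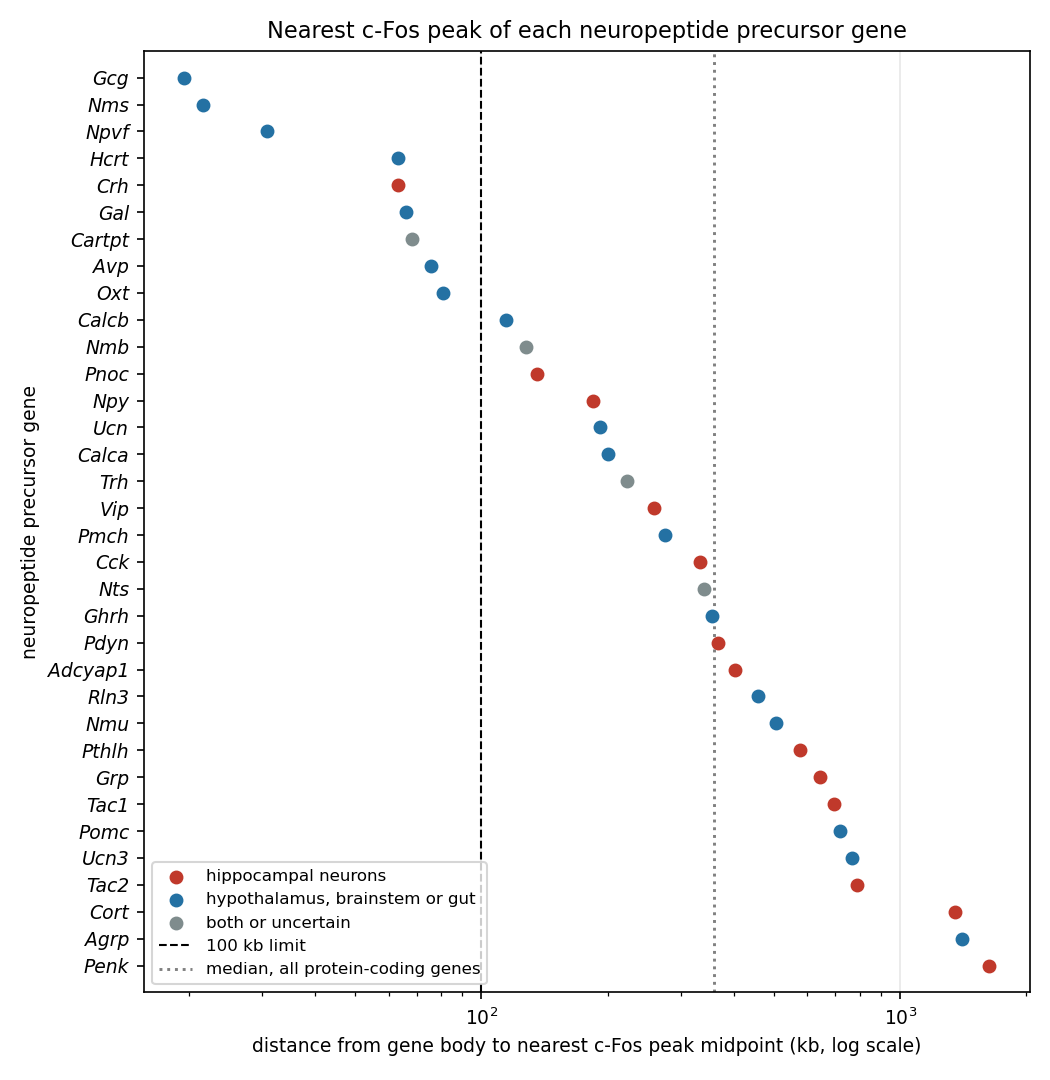
Distance from each of the 34 neuropeptide precursor genes (vertical axis, 1 point a gene, coloured by the tissue its peptide is best known from) to the midpoint of its nearest c-Fos peak (horizontal axis, kb, log scale). The dashed line marks the 100 kb limit, with 9 genes to its left, and the dotted line the median of all protein-coding genes, 360 kb. The only gene of the hippocampal group left of the dashed line is Crh.

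The peptides were separated by where they are best known to act or be made, from general knowledge rather than from these data. Of 13 genes of hippocampal neurons, 1 had a peak (7.69%, exact interval 0.195 to 36.0). Of 17 genes of peptides known mainly from hypothalamus, brainstem or gut, 7 had one (41.2%, exact interval 18.4 to 67.1). Of 4 genes with both or uncertain sites, 1 had one. Among genes of the same length and gene number as the hippocampal group, 18.8% had a peak, which corresponds to 2.45 of 13. For the hypothalamic, brainstem or gut group that share was 16.6%, or 2.82 of 17. The intervals of the hippocampal and the hypothalamic group overlap, and the difference between them was not tested. For the hypothalamic, brainstem or gut group the interval starts at 18.4%, which is above the 16.6% of genes of matching length and gene number and below the 21.8% of all coding genes. The interval treats genes as independent, but Avp and Oxt share their peak, so these 7 genes stand for 6 nearest peaks. The lists were also chosen with earlier results of these data known. The interval is therefore no test of this group against matching genes. Each peak was also counted only for its nearest coding gene, within 100 kb. The shares were then 1 of 13 hippocampal (7.69%) and 1 of 17 hypothalamic, brainstem or gut genes (5.88%). Of all 21523 protein-coding genes, 1857 were the nearest gene of a peak by this rule. The order of the 2 groups thus rests on peaks that lie nearer to other genes.

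Crh, which encodes corticotropin-releasing hormone, the peptide that starts the hormonal stress response and that hippocampal interneurons also make, was the hippocampal gene with a peak. The gene lies at chr3:19693401-19695396, and its peak at chr3:19758297-19759126 was centred 63.3 kb away on the side of higher coordinates. That peak was 830 bp wide, wider than 5.34% of all peaks. Crh was the nearest coding gene to it, and the only other within 100 kb was Trim55, on the far side of Crh.

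The other 12 hippocampal genes had their nearest peak 136 to 1630 kb away. Pnoc, encoding the nociceptin precursor, was closest to the limit at 136 kb, and Npy, encoding neuropeptide Y, followed at 185 kb. Vip, which marks interneurons that inhibit other interneurons, had its nearest peak at 258 kb. Cck, encoding cholecystokinin, made by a class of basket cells, had it at 333 kb. Pdyn, the gene of the opioid precursor prodynorphin, had its nearest peak at 366 kb, and Penk, the proenkephalin gene, had it at 1630 kb, the greatest distance among the 34. Of all protein-coding genes, 90.6% lay as near to a peak as Penk or nearer. Adcyap1, encoding PACAP, lay 403 kb from a peak. For Pthlh, the parathyroid hormone-like hormone gene, and Grp, the gastrin-releasing peptide gene, the distances were 577 and 645 kb. The tachykinin genes Tac1 (substance P and neurokinin A) and Tac2 (neurokinin B) were 694 and 788 kb away. Cort, encoding the somatostatin relative cortistatin, was 1350 kb away. Over the 13 genes the median was 403 kb, against 360 kb over all protein-coding genes.

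Among the peptides of hypothalamus, brainstem or gut, Nms had 3 peaks, the most of any neuropeptide gene. Nms encodes neuromedin S, known from the circadian clock nucleus of the hypothalamus, and lies at chr1:38939149-38950276. Its peaks were centred 21.6, 23.1 and 78.8 kb beyond the end of transcription. The nearer pair was separated by a gap of 265 bp and would count as 1 peak if joined. All 3 were closer to Pdcl3 (15.9, 14.4 and 31.9 kb) than to Nms.

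Gcg, encoding proglucagon, the precursor of glucagon and GLP-1, had 2 peaks upstream of its start, at 19.5 and 79.3 kb. Gcg lies at chr2:62474530-62483653, and the nearer peak at chr2:62502407-62503918. Both peaks lay inside the neighbouring gene Fap, which encodes a cell surface protease. Npvf, encoding the RFamide-related peptides that restrain reproductive hormone release, lies at chr6:50650672-50654445 and also had 2 peaks. The nearer was 30.8 kb upstream of its start, with Npvf as the nearest coding gene. The other was 83.9 kb away on the downstream side, and 222 bp from Cycs, the cytochrome c gene. Of the 34 genes, Nms, Gcg and Npvf had 2 or more peaks, a share of 8.82% against 5.59% of all protein-coding genes.

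The remaining genes of this group with a peak had 1 each, at greater distance and inside another gene. Hcrt, encoding the wake-promoting orexins, lies at chr11:100761693-100762931. Its peak, centred 63.2 kb upstream, lay inside Stat5b, the gene of a cytokine-responsive transcription factor. Gal, encoding galanin, lies at chr19:3409915-3414544, and its peak 65.9 kb upstream lay inside Ppp6r3, a phosphatase subunit gene. Avp, encoding vasopressin, and Oxt, encoding oxytocin, are neighbours at chr2:130580620-130582588 and chr2:130574519-130577054. Their shared peak at chr2:130657465-130658980 was 75.6 kb upstream of Avp and 81.2 kb downstream of Oxt. It lay inside Ddrgk1, and 7 coding genes were closer to it than Avp.

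**Figure D2:**
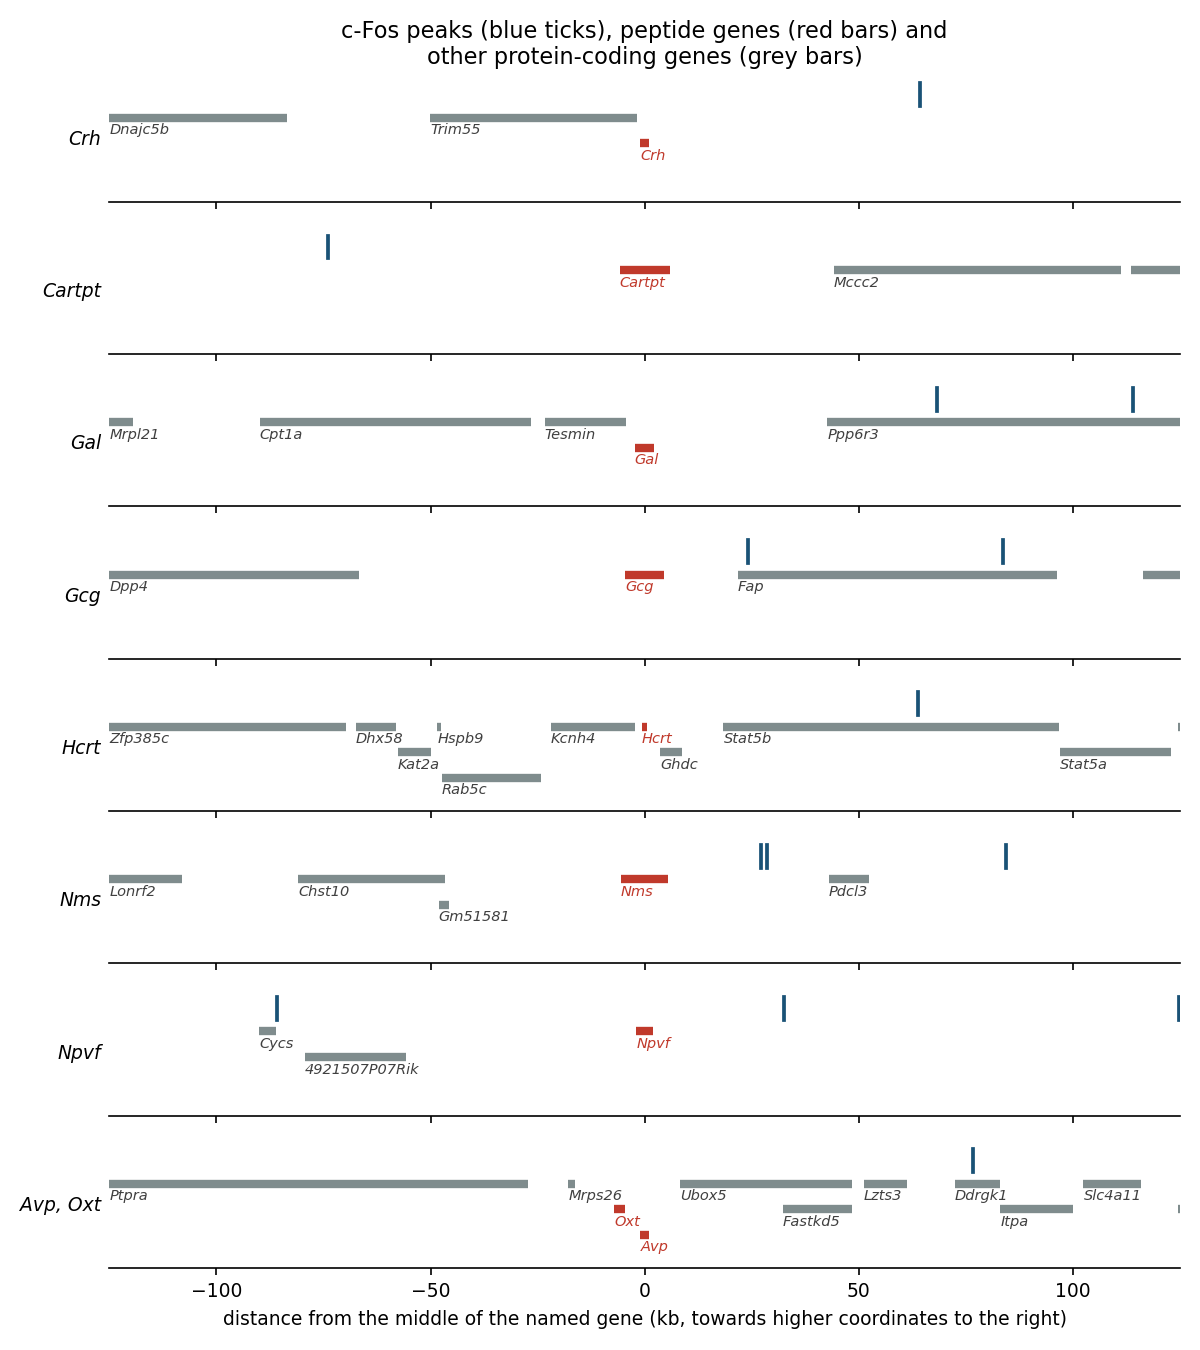
The 8 regions that hold the 9 neuropeptide genes with a c-Fos peak within 100 kb, each centred on the named gene (horizontal axis, kb; the last is centred on Avp). Blue ticks are peak midpoints, red bars neuropeptide genes and grey bars other protein-coding genes. Peaks near Gcg, Gal, Hcrt and Avp with Oxt lie over a grey bar, whereas those of Crh and Cartpt lie over none.

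The other 10 genes of the hypothalamic group had no peak within the limit. The closest outside it was Calcb, one of the genes of the vasodilator CGRP, at 114 kb, and its neighbour Calca had the same nearest peak at 201 kb. Ucn (urocortin, 192 kb), Pmch (melanin-concentrating hormone, 274 kb), Ghrh (growth hormone-releasing hormone, 356 kb) and Rln3 (relaxin-3, 457 kb) followed. Nmu (neuromedin U) lay 505 kb from a peak, Pomc (the precursor of ACTH, melanocortins and beta-endorphin) 719 kb and Ucn3 (urocortin 3) 768 kb. Agrp, encoding the hunger-promoting agouti-related peptide, was 1410 kb away. The median over the 17 genes was 192 kb.

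Among the genes of both or uncertain sites, Cartpt had a peak. Cartpt encodes CART, a feeding and reward peptide also found in the dentate gyrus, and lies at chr13:99898483-99910179. Its peak at chr13:99829531-99831187, 1657 bp wide, was 68.1 kb from the gene on the downstream side. Cartpt was the only protein-coding gene within 100 kb of this peak. Nmb (neuromedin B), Trh (thyrotropin-releasing hormone) and Nts (neurotensin) had their nearest peaks 127, 223 and 339 kb away. Around the limit itself, Avp and Oxt were the genes just inside, at 75.6 and 81.2 kb, and Calcb, Nmb and Pnoc those just outside, at 114, 127 and 136 kb.

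The share of genes with a peak was also counted at other distances. Within 200 kb, 14 of the 34 genes had a peak (41.2%). The share was 34.4% among all protein-coding genes and 29.5% among genes of matching length and gene number. The 14 included 2 of 4 genes of both or uncertain sites and 3 of 13 hippocampal genes (23.1%, against 30.8% of matching genes). They also included 9 of 17 hypothalamic, brainstem or gut genes (52.9%, against 28.9% of matching genes). Within 50 kb there were 3 genes, Gcg, Nms and Npvf, all of the hypothalamic, brainstem or gut group. That is 8.82% of the 34, against 14.0% of all protein-coding genes and 9.71% of genes of matching length and gene number. Over all 34 genes the median distance was 266 kb (quartiles 89.5 and 559 kb), against 360 kb (124 and 813 kb) for all protein-coding genes. The 95% interval of the median of the 34 genes ran from 127 to 457 kb and so covered 360 kb.

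**Figure D3:**
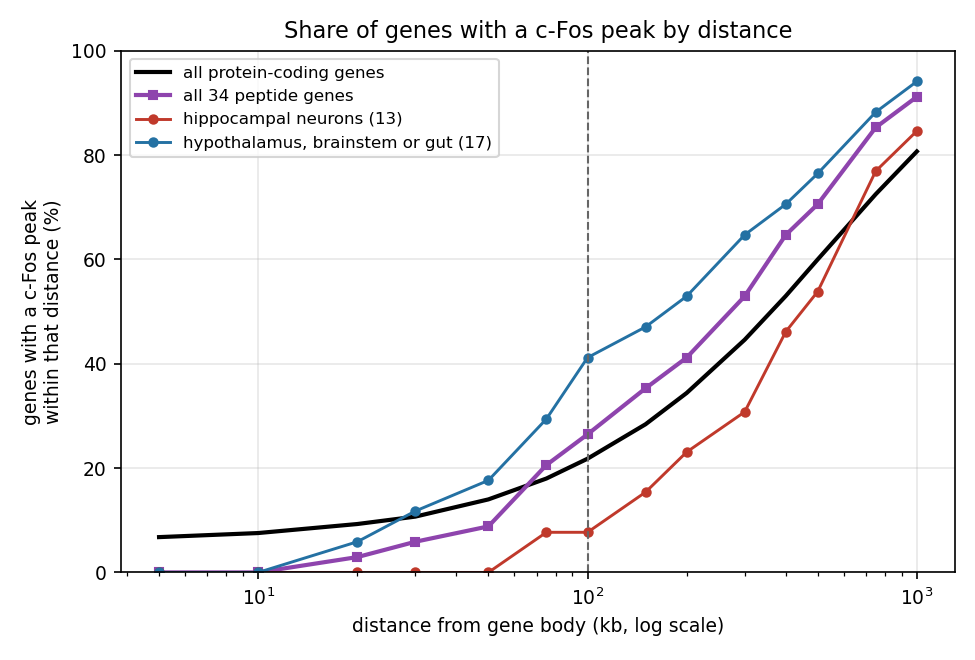
Share of genes with a c-Fos peak (vertical axis, percent) within a given distance of the gene body (horizontal axis, kb, log scale) for all protein-coding genes, all 34 neuropeptide genes and the larger pair of groups by tissue. At the 100 kb limit (dashed line) the shares are 21.8%, 26.5%, 7.69% for hippocampal genes and 41.2% for genes of hypothalamus, brainstem or gut.

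The 9 genes with a peak had 13 links to 12 distinct peaks. In 3 of these links the neuropeptide gene was the nearest coding gene, namely Crh, Cartpt and the nearer peak of Npvf. By this measure 3 of 9 neuropeptide genes with a peak (33.3%) were the nearest gene of one, against 1857 of the 4694 protein-coding genes with a peak (39.6%). The linked peaks were 830 to 1919 bp wide, with a median of 1483 bp against 1341.5 bp over all peaks. Within 100 kb of them lay 1 to 10 coding genes, a median of 3.5 against 1 over all peaks; having a gene in reach is part of how these peaks were chosen. Of the 12 peaks, 5 lay inside another coding gene, in Fap (2), Stat5b, Ppp6r3 and Ddrgk1, compared with 52.2% of all peaks inside a coding gene. With respect to transcription, 6 links were upstream and 6 downstream, and for Crh the strand was not used here.

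Promoter sequences of RefSeq (GRCm38.p6), from 250 bases before to 50 after the transcript start, matched 28 of the 34 genes, with 31 promoters. No peak overlapped any of the 31, which by the same limit of 3 allows a share of up to 9.68%, and 338 of 32619 promoters overall (1.04%) were overlapped. The 250 bases before the start were then searched on both strands for TGANTCA, a form of the AP-1 site with any base in the middle, and for the cAMP response element, TGACGTCA, which CREB binds. TGANTCA occurred in 5 of 31 neuropeptide promoters (16.1%) and in 6.75% of 32851 promoters. The stricter AP-1 letters TGACTCA, or TGAGTCA on the other strand, were searched after these matches were seen, and occurred in 4 of 31 (12.9%) and in 4.46% of all. TGACGTCA occurred in 2 of 31 (6.45%) and in 1.55% of all. Its core TGACG, which the longer form contains, occurred in 14 of 31 (45.2%), belonging to 12 genes, and in 17.8% of all. These counts are a description of the reference sequence, and a match is not a bound site.

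The matches to the longer motifs are shown because AP-1 and CREB are factors that neuronal activity engages, although none of these promoters carried a peak. Each line runs from 40 bases before the match to 40 after it, or less at the end of the searched window, in the direction of transcription, with the match in capitals. The first 5 hold TGANTCA and the last pair TGACGTCA.
Avp, chr2:130582661-130582747, minus strand: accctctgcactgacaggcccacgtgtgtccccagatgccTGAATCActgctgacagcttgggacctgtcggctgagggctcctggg
Nms, chr1:38938899-38938981, plus strand: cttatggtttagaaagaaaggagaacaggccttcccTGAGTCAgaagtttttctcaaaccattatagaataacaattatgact
Nmu, chr5:76363902-76363988, minus strand: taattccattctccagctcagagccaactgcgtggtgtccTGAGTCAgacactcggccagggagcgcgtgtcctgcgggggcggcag
Nts, chr10:102490579-102490665, minus strand: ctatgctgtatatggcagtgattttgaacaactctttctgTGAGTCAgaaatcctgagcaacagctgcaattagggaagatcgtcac
Pmch, chr10:88090944-88091030, plus strand: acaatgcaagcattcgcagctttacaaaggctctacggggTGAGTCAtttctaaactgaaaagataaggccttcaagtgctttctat
Cartpt, chr13:99900748-99900835, minus strand: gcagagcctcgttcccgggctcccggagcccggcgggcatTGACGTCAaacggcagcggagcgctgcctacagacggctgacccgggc
Ucn, chr5:31138896-31138979, minus strand: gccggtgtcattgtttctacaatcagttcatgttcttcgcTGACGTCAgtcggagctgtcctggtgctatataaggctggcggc
Of these 7 genes, Avp, Nms and Cartpt had a peak within 100 kb and Nmu, Nts, Pmch and Ucn had none. The match lay 119 bases before the start in Avp, 214 in Nms, 171 in Nmu, 207 in Nts and 88 in Pmch, counted from the first base of the match. The Avp match reads TGAATCA and the other 4 read TGAGTCA. In Cartpt and Ucn the cAMP response element began 112 and 44 bases before the start.

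Peptide receptors and the machinery of peptide processing were examined as the other genes of the pathway. Of 46 receptor genes, 13 had a peak (28.3%, exact interval 16.0 to 43.5), against 22.1% of genes of like length and gene number. A peak lay within 10 kb of 4 receptor genes (8.70%), near the 7.55% of all protein-coding genes. They were Trhr2, a thyrotropin-releasing hormone receptor, at 29 bp, Mc4r, the melanocortin receptor that limits feeding, at 1.38 kb, Hcrtr1, an orexin receptor, at 1.41 kb, and Galr1, a galanin receptor, at 1.55 kb. Each was the nearest coding gene to its peak. Rxfp3, the relaxin-3 receptor, and Crhr2, a receptor of the corticotropin-releasing hormone family, followed at 16.0 and 28.5 kb. Whether receptors and precursors differ in the share within 10 kb was not tested.

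Of 13 genes of peptide processing and dense-core vesicles, 7 had a peak (53.8%, exact interval 25.1 to 80.8), against 26.0% of genes of like length and gene number. A peak midpoint lay inside 4 of the 13 (30.8%), against 8.94% of genes of like length and gene number and 5.52% of all. Peak midpoints lay inside Pam, which amidates peptide ends (3 peaks), Pcsk2, a prohormone convertase (2), Cpe, carboxypeptidase E (2), and Cadps2, a vesicle priming factor (2). These 4 genes are 101 to 578 kb long, whereas none of the 34 neuropeptide genes exceeded 30.3 kb. Scg2, the secretogranin II gene, had its nearest peak 6 bp away, and Chgb, the chromogranin B gene, 39.3 kb away. Pcsk1, the other main neuronal convertase, had its nearest peak 1720 kb away. Cadps, a processing gene 451 kb long, had its nearest peak 200 kb away. Whether gene length bears on the peaks inside processing genes was not tested.

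**Figure D4:**
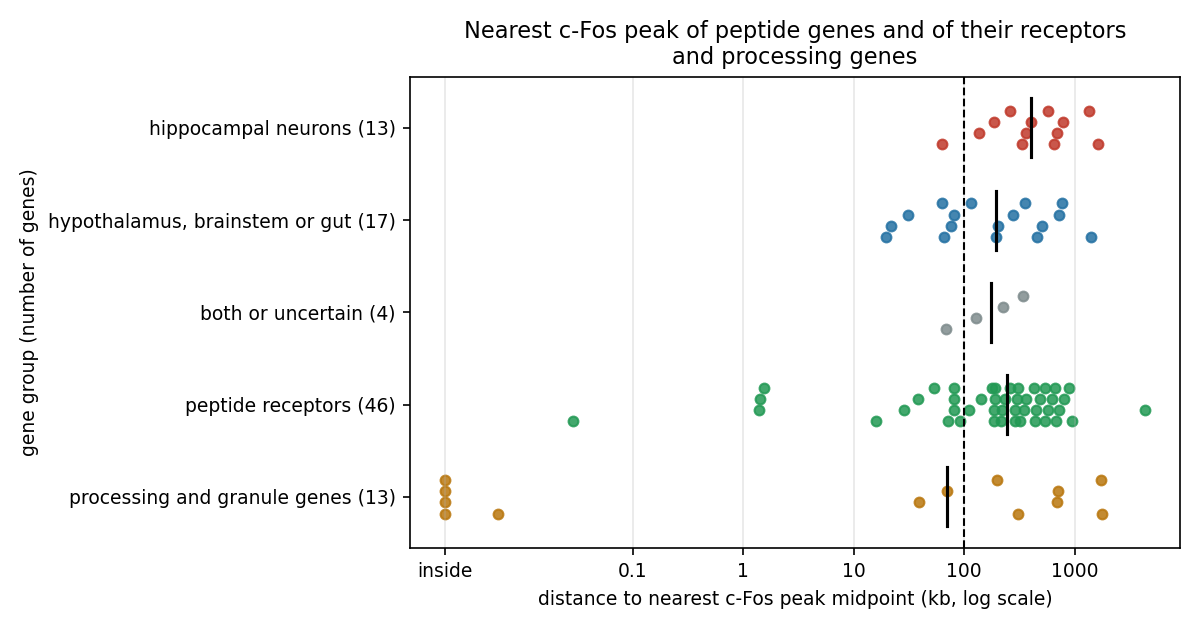
Distance from the gene body to the nearest c-Fos peak midpoint (horizontal axis, kb, log scale, with peaks inside the gene at the left) for neuropeptide genes by tissue, peptide receptors and processing genes (vertical axis, 1 point a gene, vertical bars at medians). None of the 34 neuropeptide genes has a point left of 19.5 kb, and matching genes would give 1.28 of 34 within 10 kb. Under 10 kb lie 4 of 46 receptor genes (8.7%, against 7.55% of all protein-coding genes). A peak lies inside 4 of 13 processing genes (30.8%, against 8.94% of matching and 5.52% of all protein-coding genes).

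Genes that mark cell types were examined beside the hippocampal peptides, since many of these are made by interneurons, which the CaMK2a sort is meant to leave out. Of 12 interneuron markers 8 had a peak (66.7%, exact interval 34.9 to 90.1). The share was 22.4% among genes of matching length and gene number and 21.8% among all coding genes. The markers without a peak were Pvalb, Lhx6, Reln and Calb2. Dlx1 and Dlx2 are neighbours and share their 3 peaks, so the 8 genes are not independent. The Htr3a peak lay 95.5 kb away, inside Zbtb16. Of 12 pyramidal neuron markers 4 had a peak (33.3%, exact interval 9.92 to 65.1, against 24.0% of matching genes). The Slc17a7 peak lay 14.1 kb away, inside Kash5. With each peak counted only for its nearest coding gene, 6 interneuron markers (50.0%) and 3 pyramidal markers (25.0%) had one. By that rule 1857 of all 21523 protein-coding genes had one. A midpoint lay inside 2 markers of each kind (16.7%), Gad2 and Slc32a1 for interneurons and Spink8 and Zbtb20 for pyramidal neurons. Those shares were 5.08% and 8.47% among matching genes, and 5.52% among all coding genes. Inside or within 10 kb, 6 interneuron markers (50.0%) and 3 pyramidal markers (25.0%) had a peak. Matching genes gave 7.35% and 10.7%, and all coding genes 7.55%. The difference between the marker lists was not tested. Sst, a neuropeptide gene that is not among the 34, had 3 peaks, the nearest at 4.35 kb. Its peptide, somatostatin, marks an interneuron class. The absence of peaks within 10 kb therefore holds for the 34 genes only. Likewise the hippocampal count of 1 of 13 within 100 kb leaves out Sst and holds for the listed genes only. The marker counts bear on the position of peaks, and the share of interneuron nuclei in the sort was not tested.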

How the data were processed

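CUT&RUN was done on GFP-sorted nuclei of mouse CA1 in 12 samples, grouped by their titles. The tools named in the submitters' processing notes are SEACR 1.1, bedtools 2.27.1, Bowtie2 2.2.9 and Trimmomatic 0.36, and the builds are mm10 and sacCer3. Their settings, and the way replicates were combined, are not stated there or in the labels. The deposited BED file holds chromosome, start and end of 3295 peaks, with no other measured unit. Peaks under the authors' unknown threshold are missing from every count. It is attached to 1 sample and was read as the list of its group. One peak on an unplaced sequence was left out, as were 340 genes starting below 3000000 (108 protein-coding), whose coordinates looked to be those of unplaced scaffolds.

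Distances run from the gene body to the peak midpoint, 0 when inside. Genes were compared with all protein-coding genes and with the mean share of genes in the same quintiles (5 by 5) of length and of coding genes within 100 kb. Exact binomial intervals came from scipy 1.17.1. No test was run, since the genes and lists were chosen with earlier results of these data known. Every neuropeptide gene with a peak is named, as are the nearest outside the limit. From the receptor list and from the processing list, the 6 genes with the nearest peaks are named. Further genes were named after their values were seen. Linking was checked on peaks planted at known distances from 200 genes, all recovered.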

Additional observations from a re-analysis of the deposited data

How the results depend on the processing

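No paired analysis was possible because replicates have no values of their own in the deposited list, and for the same reason none could be left out. The count of neuropeptide genes with a peak (9) was 7 with the wider peaks, 9 with merging within 500 bp, with peak edges or without peaks over 5 kb, and 8 with Avp and Oxt counted once, the last chosen after seeing the data. It was 0, 3 and 14 at 10, 50 and 200 kb, and 3 (8.82% of 34) when each peak counted only for its nearest gene. By that nearest-gene rule 1857 of all 21523 protein-coding genes had a peak. For hippocampal genes (1) it was 0, 0 and 3 at these distances, 0 with the wider peaks, since the Crh peak is narrow, and 2 with the uncertain genes added. For hypothalamic, brainstem or gut genes (7) it was 0, 3 and 9 at 10, 50 and 200 kb, and 6 with the wider peaks. It was 1 for nearest genes only, where the hippocampal count was also 1. The moves at 10, 50 and 200 kb follow from the reach, and those with added genes from the longer list. The median distance rose from 266 to 479 kb with the wider peaks, which are fewer (1647). No share or median over all protein-coding genes is given for the wider peaks, so their counts and median have no background here. The background of 21.8% was 17.4% in matching genes and 20.4% over all gene types.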

Other observations

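Precursor genes were also set beside the genes of their receptors, in pairs drawn up after the peaks were seen. Of 8 precursor genes with a peak and a listed receptor, 5 had a receptor gene that also had a peak within 100 kb: Avp with Avpr1b, Crh with Crhr2, Gal with Galr1, Hcrt with Hcrtr1, and Nms with Nmur1 and Nmur2. Of 25 precursor genes without a peak, 10 had such a receptor, among them Npy, whose receptor genes Npy1r and Npy5r are neighbours and share a peak at 53.3 and 72.0 kb. Over all 33 precursor genes with a listed receptor, 15 had such a receptor. The related receptor genes Avpr1a, Galr2, Galr3, Hcrtr2 and Crhr1 had no peak within 100 kb, with that of Crhr1 445 kb away. Several precursors share receptors, so the pairs are not independent, and the difference was not tested. Cartpt was left out, since no receptor was listed for it.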
